A study of Homo sapiens with 6 samples.

Results

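The urea cycle and amino acid metabolism genes examined here were 45 genes listed by symbol. All 45 were found by gene name among the 50868 genes of a read count table from Huh7 cells, an established human hepatoma line. The list covers 7 roles: the urea cycle with its carriers, glutamate handling and aminotransferases, aromatic amino acid breakdown, branched-chain amino acid breakdown, the methionine cycle and transsulfuration, the synthesis of serine, glycine and asparagine, and the breakdown of proline, serine and histidine. The rule that finds them uses no measured value. The study sequenced total RNA to ask which genes respond to hsa_circ_0098181, a circular RNA made from exons of SOX5. In the overexpression group, 3 libraries came from Huh7 cells transfected with a plasmid carrying hsa_circ_0098181. In the control group, 3 libraries came from Huh7 cells given the control plasmid. Both plasmids were delivered with a lipid transfection reagent and RNA was taken 48 h later. The groups therefore share the transfection, and all libraries come from 1 line. The labels do not say that the libraries of a group came from separate cultures, so every p-value here measures the spread between these samples, which may be technical.

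The liver disposes of amino acid nitrogen as urea. Carbamoyl phosphate and ornithine are joined in mitochondria, citrulline moves to the cytosol, and argininosuccinate and arginine are then formed and arginine is split into urea and ornithine. Aminotransferases pass amino groups between amino acids and keto acids, largely through glutamate, and the carbon skeletons of aromatic, branched-chain and sulfur amino acids are broken down by dedicated routes, several of which are liver specific. Tumour cells of hepatocyte origin often keep some of these routes and lose others, while the routes that build serine, glycine and asparagine serve growing cells.

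Library totals ran from 11130902 to 14138262 counts, and 23782 genes had 0 counts in all 6 libraries. SOX5, the host gene of the delivered circle, had 24906 to 33577 counts with overexpression and 380 to 453 in controls, a log2 fold change of 5.88 ± 0.16 (SE; edgeR quasi-likelihood test, adjusted p = 2.6e-06). All 10 hepatocyte and hepatoma markers were expressed, among them AFP and ALB, at a summed 31189 to 37096 CPM (read counts scaled by the normalized library size), and none passed the test between the groups. Of these, APOB had a log2 fold change of −0.39 (edgeR quasi-likelihood test, unadjusted p = 0.0459, adjusted p = 0.797), and −0.23 without control replicate 1. HNF4A, named after its values were seen, had 2135 counts in control replicate 1 against 1059 to 1592 in the other libraries, and a log2 fold change of −0.54 (edgeR, unadjusted p = 0.0746). The 10 markers of other liver cells summed to 68.5 to 81.0 CPM in every library, mostly PECAM1, with STAB2 at 0. Mitochondrial transcripts held 9.29% of the counts in control replicate 1 and 6.32% to 7.04% in the other libraries.

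None of the 39 members with enough counts to be tested differed between the groups at an adjusted p under 0.05 (edgeR quasi-likelihood test, Benjamini-Hochberg adjustment over 15055 genes). Among all tested genes 6 did, or 0.0399%. The smallest adjusted p of any member was 0.797. At an unadjusted p under 0.05 there was 1 member, HPD, against 5.5% of all tested genes. DESeq2 called 0 members and gave an unadjusted p under 0.05 to 1, again HPD. Limma on the deposited FPKM values called 0 members and gave such a p to 0, and it did not test HPD, which was under its expression minimum. The other 6 genes, OTC, GLS2, KMO, GNMT, SDS and PRODH, had too few counts to be tested. In bulk RNA, fewer cells that express a gene and less of its RNA per cell cannot be told apart.

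The fitted differences were small. Of the 39 members, 24 were fitted higher with overexpression and 15 lower, or 61.5% higher against 50.5% of all tested genes. Their log2 fold changes ran from −0.91 to 0.43 with a median of 0.07, against 0.0023 over all tested genes. Without control replicate 1 the members' median was 0.01 and without control replicate 3 it was 0.04. Standard errors ran from 0.08 to 0.50. The 95% confidence interval of the log2 difference lay within 0.5 of 0 for 25 members (64.1%, against 47.7% of all tested genes) and within 1.0 of 0, a 2-fold difference, for 37 (94.9%, against 84.1%). The intervals that reached past a 2-fold difference were those of ARG1 and HPD. The within-group SD of log2(CPM + 0.5) had a median of 0.13 over members and 0.18 over all tested genes. Neither the intervals nor this spread were compared with genes of matched level, so they do not show a trait of the members.

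**Figure D1:**
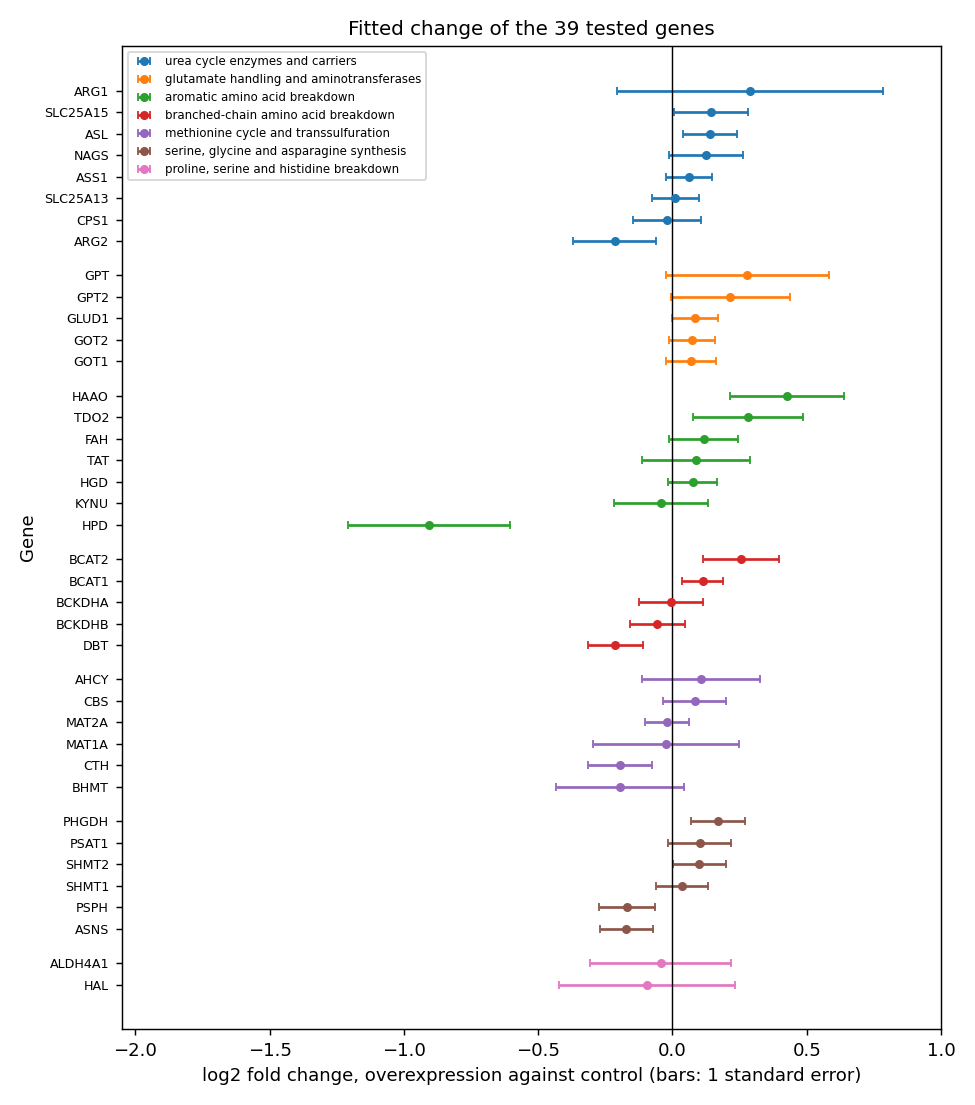
Fitted log2 fold change, overexpression against control, of the 39 tested genes (x axis), grouped by role (colours), with bars of 1 standard error. All points but HPD lie within 0.5 of 0, and ARG1 has the widest bar, 0.50.

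The members spanned a wide range of levels, here compared as CPM per kilobase of merged GENCODE 29 exons, averaged over all 6 libraries. The highest were PSAT1 at 158 and GLUD1 at 148 CPM per kb, followed by ASL at 95.1, AHCY at 91.9 and MAT2A at 67.3. AHCY and ASL did not differ beyond the spread of AHCY, whose values across the libraries overlapped those of ASL. HGD, SHMT2 and GOT2 followed at 57.0, 55.5 and 52.8 CPM per kb, with values that also overlapped across libraries. At the other end, 4 genes stayed under 0.1 CPM per kb. GLS2 stood at 0.0488, KMO at 0.00858 and SDS at 0.00448 CPM per kb, and PRODH had 0 counts in all 6 libraries. A count of 0 allows up to 3 counts per library, or 0.212 to 0.269 CPM at these depths, and this limit covers counting error only, as do all such limits here. Merged exons of all annotated transcripts include retained introns, which makes levels of genes with many transcripts look lower.

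**Figure D2:**
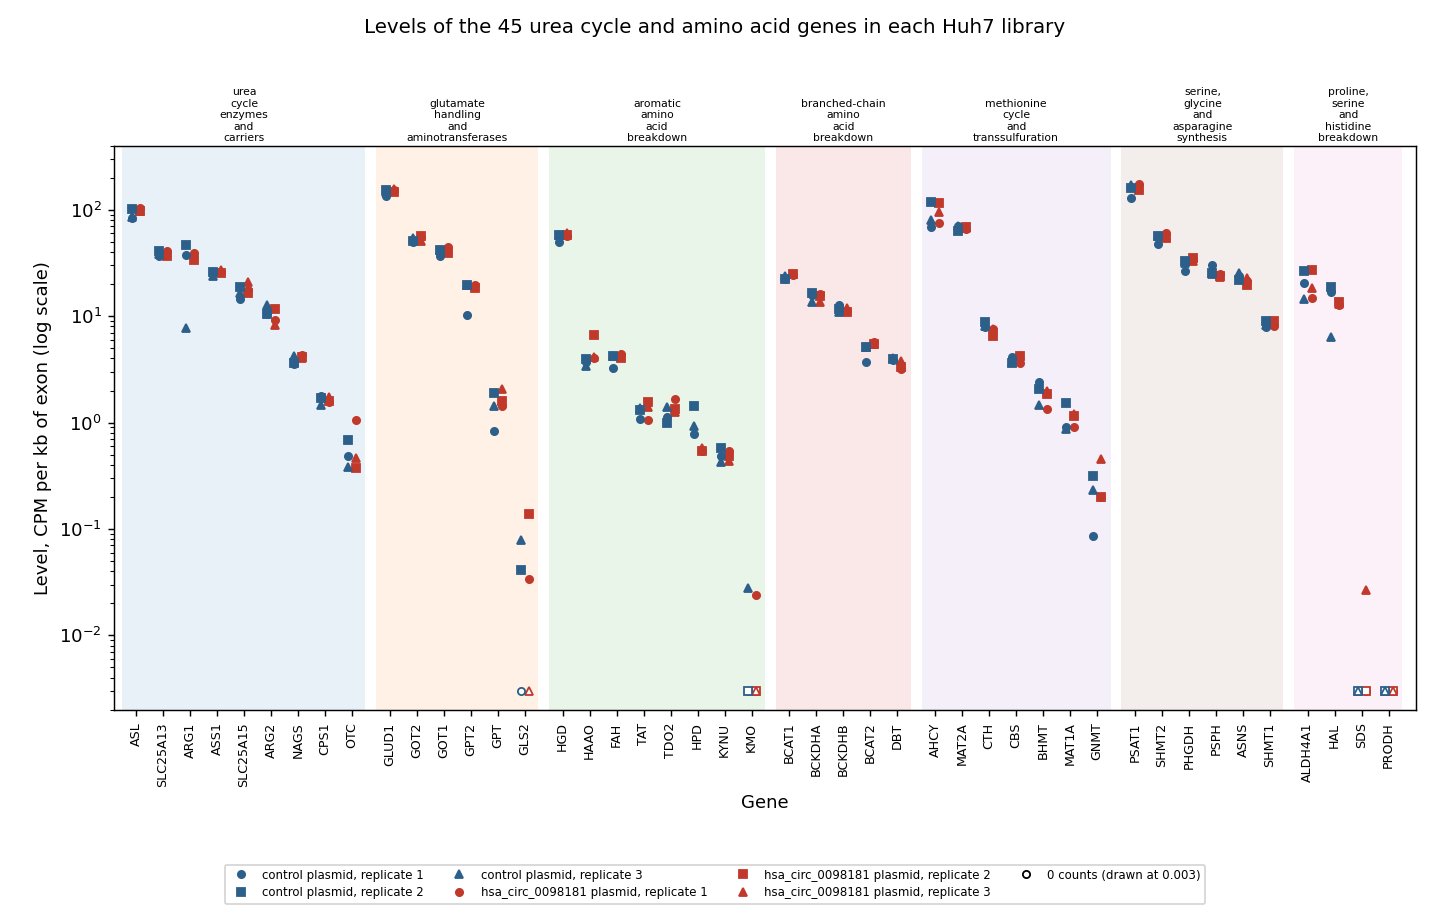
Level of each of the 45 genes in each library, in CPM per kb of exon on a log axis (y), grouped by role and ordered by level within the role (x). Circles, squares and triangles are replicates 1, 2 and 3, blue for control and red for overexpression, and open symbols are 0 counts. Levels run from 158 CPM per kb for PSAT1 to 0 for PRODH, and in most genes the symbols of all 6 libraries lie on top of each other.

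Along the urea cycle itself, the last steps were higher per length than the first ones. NAGS, which makes the N-acetylglutamate that activates the cycle, stood at 3.98 CPM per kb. CPS1, which makes carbamoyl phosphate in mitochondria and is among the most abundant enzymes of normal liver, stood at 1.64 CPM per kb, rank 33 of the 45 genes. CPS1 had 16.6, 17.1 and 18.8 CPM with overexpression and 19.2, 18.5 and 15.6 CPM in controls. These values overlapped, and the log2 difference lay between −0.31 and 0.27 (95% interval). OTC, which joins carbamoyl phosphate to ornithine, had 26, 9 and 10 counts with overexpression and 9, 14 and 8 counts in controls, a level of 0.576 CPM per kb. Its highest value was that of overexpression replicate 1, and the other 5 libraries did not separate by group.

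ASS1, which condenses citrulline with aspartate, stood at 25.6 CPM per kb, and ASL, which splits argininosuccinate into arginine and fumarate, at 95.1. ASL had 333, 311 and 312 CPM with overexpression and 266, 327 and 273 CPM in controls. Control replicates 1 and 3 were below all other libraries and control replicate 2 lay among the overexpression values, so the groups overlapped. Without control replicate 2, ASL had a log2 fold change of 0.24 and an unadjusted p of 0.0364 (edgeR quasi-likelihood test, adjusted p = 0.672). The mitochondrial aspartate/glutamate carrier SLC25A13 (38.7 CPM per kb) and the ornithine carrier SLC25A15 (17.5 CPM per kb) were both well expressed. Of the 8 tested genes of the cycle and its carriers, 6 were fitted higher and 2 lower, with a median of 0.09, and 0 passed the test.

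ARG1, the cytosolic liver arginase that releases urea (ENSG00000118520, chr6:131573144-131584332, plus strand, GRCh38), was the least reproducible member. It had 77.2, 65.8 and 75.9 CPM with overexpression and 73.0, 91.0 and 15.3 CPM in controls. The 15.3 CPM of control replicate 3, from 186 counts, stood far under the other 5 libraries, which lay close together. The log2 fold change was 0.29 ± 0.50 (SE), and without control replicate 3 it turned to −0.17. In the opposite-strand neighbour MED23, which overlaps ARG1 and was looked up after the ARG1 values were seen, control replicate 3 had 935 counts and the other libraries 900 to 998. The strand setting of the counting is not given in the sources used here, so reads of overlapping genes such as these cannot be told apart. ARG2, the mitochondrial arginase, is expressed in many tissues. ARG2 had 22.3, 28.0 and 19.8 CPM with overexpression and 25.4, 25.5 and 30.5 CPM in controls, with overlapping groups and a log2 fold change of −0.22 ± 0.15 (SE), the lowest of the cycle. Without overexpression replicate 3 or control replicate 3 it was −0.11 or −0.12, and without overexpression replicate 2 it was −0.37, with an unadjusted p of 0.0429 and an adjusted p of 0.896 (edgeR quasi-likelihood test).

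HAL, the histidine ammonia-lyase that starts histidine breakdown (ENSG00000084110, chr12:95972662-95996365, minus strand), was low in the same library as ARG1. It had 65.6, 70.01 and 66.9 CPM with overexpression and 87.6, 96.0 and 32.7 CPM in controls. The overexpression libraries were within a narrow range that lay between control replicate 3 below and control replicates 1 and 2 above. The log2 fold change was −0.09 ± 0.33 (SE), and without control replicate 3 it was −0.44, with an unadjusted p of 0.00279 and an adjusted p of 0.669 (edgeR quasi-likelihood test). Relative to their means over the 6 libraries, HAL stood at −1.01 (log2) in control replicate 3 and ARG1 at −1.90. Among the 9953 tested genes with a mean of at least 10 CPM, 23 (0.231%) were as low as HAL or lower in that library and 3 (0.0301%) as low as ARG1. In the same library PROX1, a hepatocyte transcription factor, had 2120 counts against 375 to 618 in the other 5. The hepatocyte markers had their lowest summed level there, 31189 CPM. Overexpression replicate 1 was next at 32154 CPM, with 77.2 CPM of ARG1 and 65.6 CPM of HAL. The part of PROX1 and of these markers in the ARG1 and HAL values was not tested.

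The promoters of ARG1 and HAL are printed because these genes were low together in control replicate 3. That of ASNS, the asparagine synthetase described further on, is set beside them as a promoter rich in CpG. Each runs from 250 bases before to 50 bases after the RefSeq start (GRCh38.p14), 5′ to 3′ on the gene's strand. ARG1 is chr6:131572976-131573275 (plus strand), HAL chr12:95996295-95996594 (minus strand) and ASNS chr7:97872359-97872658 (minus strand). Capitals mark matches to TATAAA (the core of a TATA box), TTGCNNAA (a C/EBP type motif) or TGATGNAA (an ATF4 composite type motif), each searched on both strands.
ARG1: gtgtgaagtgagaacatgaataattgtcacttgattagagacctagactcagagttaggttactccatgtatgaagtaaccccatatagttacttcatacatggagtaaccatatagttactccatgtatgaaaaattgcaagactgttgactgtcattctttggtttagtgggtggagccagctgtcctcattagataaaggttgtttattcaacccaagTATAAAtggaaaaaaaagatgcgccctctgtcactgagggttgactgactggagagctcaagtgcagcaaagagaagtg
HAL: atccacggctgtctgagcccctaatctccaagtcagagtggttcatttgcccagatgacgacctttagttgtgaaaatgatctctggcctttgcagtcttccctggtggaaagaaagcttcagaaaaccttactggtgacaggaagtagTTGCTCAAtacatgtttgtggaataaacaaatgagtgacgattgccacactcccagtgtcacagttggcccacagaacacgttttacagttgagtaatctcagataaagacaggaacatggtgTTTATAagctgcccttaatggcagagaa
ASNS: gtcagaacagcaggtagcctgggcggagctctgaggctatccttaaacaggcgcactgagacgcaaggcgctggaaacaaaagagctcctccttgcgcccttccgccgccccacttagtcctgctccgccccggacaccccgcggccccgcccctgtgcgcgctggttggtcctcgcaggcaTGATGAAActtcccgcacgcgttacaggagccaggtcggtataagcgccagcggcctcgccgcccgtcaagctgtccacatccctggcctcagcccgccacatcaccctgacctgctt
With the start base counted as 0, ARG1 held TATAAA at −29 to −24, the usual place of a TATA box. HAL held TTGCTCAA at −101 to −94 and, after the start, TTTATA at 22 to 27, which is TATAAA on the other strand. ASNS held TGATGAAA at −68 to −61. The marked matches do not overlap within any of the windows. ARG1 had 1 CpG in its window, HAL 4 and ASNS 25. Among 35116 promoter windows of this length, TATAAA was in 11.5%, TTGCNNAA in 10.5% and TGATGNAA in 3.62%. A match describes the letters only, and no binding was measured.

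For the whole list, 37 members matched the promoter table. PRODH, TAT, BCAT2, SHMT2, GPT, GPT2, HGD and PSPH were unmatched, and HPD, PHGDH, SDS and TDO2 were left out because the nearest start lay over 1000 bases from the gene's start in the count table. The remaining 33 windows held a median of 23 CpG, against 14 over all windows. The 18 members at 10 CPM per kb or more had a median of 26 CpG and the 15 below that level a median of 15. Across these 33 genes, which are all measured in the same libraries, Spearman's rho between CpG number and level was 0.493. TATAAA was found in 8 members, ARG1, BCAT1, BHMT, HAL, KMO, KYNU, MAT2A and OTC. TTGCNNAA was in HAL and KYNU, and TGATGNAA in ASNS and GOT1. CAAAGTCC, an HNF4 type motif found in 1.2% of all windows, was in ALDH4A1, HAAO and OTC. Matches to different motifs were counted separately even where they could share bases.

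Glutamate handling was carried by GLUD1, GOT1 and GOT2. GLUD1, the glutamate dehydrogenase that releases ammonia from glutamate, had 468 to 552 CPM in the 6 libraries. Its near-identical copies, mainly GLUD2, held 13.7% of the summed counts. How reads that match more than 1 gene were counted is not given, so this share does not bound the error of its level. GOT2, the mitochondrial aspartate aminotransferase, stood at 52.8 CPM per kb and the cytosolic GOT1 at 41.1. GLS2, the liver glutaminase, had 2, 8 and 0 counts with overexpression and 0, 2 and 4 in controls. These counts lie near the limit of detection and do not separate the groups.

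The alanine aminotransferases differed in level by isozyme. GPT2, the mitochondrial form, stood at 17.7 CPM per kb and the cytosolic GPT at 1.54. GPT2 had 123, 117 and 122 CPM with overexpression and 64.4, 123 and 124 CPM in controls. Control replicate 1 was far below the rest, and the other 5 libraries lay within a narrow range that mixed both groups. GPT showed its lowest value in the same library, with 3.96, 4.35 and 5.66 CPM with overexpression and 2.31, 5.19 and 3.95 CPM in controls. GPT had a log2 fold change of 0.28 ± 0.30 (SE), the highest of this role, and without control replicate 1 it was 0.03. GOT1 had the smallest fitted difference, 0.07 ± 0.09 (SE), and leaving out each library in turn gave 0.01 (without control replicate 1) to 0.11 (without overexpression replicate 2). All 5 tested genes of the role were fitted higher with overexpression, with a median of 0.08, and 0 passed the test.

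Aromatic amino acid breakdown was uneven along its chain. In the tyrosine route, TAT, which removes the amino group of tyrosine, stood at 1.30 CPM per kb and HPD, which oxidises the resulting hydroxyphenylpyruvate, at 0.80. HGD, the homogentisate dioxygenase after them, stood at 57.0 and FAH, the last enzyme of the route, at 4.09. In the tryptophan route, TDO2, the liver tryptophan dioxygenase that opens it, stood at 1.29 CPM per kb, and KYNU, the kynureninase, at 0.49. KMO, the kynurenine hydroxylase between them, had 2 counts each in overexpression replicate 1 and control replicate 3 and 0 in the other 4 libraries. HAAO, which acts after KYNU on the way to NAD, stood at 4.31. In both routes the first enzymes were lower per length than a later one, HGD or HAAO.

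HPD (ENSG00000158104, chr12:121839527-121863596, minus strand) had the largest fitted difference of all members. It had 17, 17 and 16 counts with overexpression and 19, 37 and 25 counts in controls, or 1.203, 1.213 and 1.29 CPM against 1.75, 3.15 and 2.06 CPM. All 3 overexpression libraries lay below all 3 controls, and control replicate 2 was the highest. The log2 fold change was −0.91 ± 0.30 (SE), with a 95% interval of −1.60 to −0.22, an unadjusted p of 0.0162 and an adjusted p of 0.797 (edgeR quasi-likelihood test), so it did not pass the test. Without control replicate 2 it was −0.62 with an unadjusted p of 0.0817. HAAO lay at the other end of the role, with 11.1, 18.1 and 11.2 CPM with overexpression and 10.2, 10.7 and 9.22 CPM in controls. The groups did not overlap, and overexpression replicate 2 stood above all others. Its log2 fold change was 0.43 ± 0.21 (SE; unadjusted p = 0.0766, edgeR quasi-likelihood test), and without overexpression replicate 2 it was 0.15. Of the 7 tested genes of the role, 5 were fitted higher and 2 lower, with a median of 0.09.

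Branched-chain amino acids are first transaminated by BCAT1 in the cytosol or BCAT2 in mitochondria, and the keto acids are then oxidised by a complex of which BCKDHA and BCKDHB form the decarboxylase and DBT the transacylase core. BCAT1, which normal adult liver barely expresses, stood at 23.8 CPM per kb and BCAT2 at 5.09. BCAT1 had 286, 295 and 294 CPM with overexpression and 264, 264 and 281 CPM in controls. BCAT2 had 25.8, 24.8 and 25.0 CPM with overexpression and 17.0, 23.2 and 23.1 CPM in controls. For both genes all 3 overexpression libraries lay above all 3 controls. BCAT2 had a log2 fold change of 0.25 ± 0.14 (SE), and without control replicate 1 it was 0.12. DBT had 36.0, 37.3 and 42.8 CPM with overexpression and 44.1, 44.9 and 45.5 CPM in controls, so here all 3 overexpression libraries lay below the controls, replicate 3 by little. Its log2 fold change was −0.21 ± 0.10 (SE; unadjusted p = 0.0723, edgeR quasi-likelihood test). BCKDHA and BCKDHB stood at 15.2 and 11.5 CPM per kb, with fitted log2 differences of −0.01 and −0.06. The median of the role was −0.01, with 2 genes fitted higher and 3 lower, and 0 passed the test.

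In the methionine cycle, the general form of methionine adenosyltransferase prevailed over the liver form. MAT2A, the general form that makes S-adenosylmethionine, stood at 67.3 CPM per kb and MAT1A, the liver form, at 1.09. GNMT, a liver methyltransferase that consumes S-adenosylmethionine, had 1 to 6 counts in each library. AHCY, which hydrolyses S-adenosylhomocysteine, had 290.2, 450.3 and 372 CPM with overexpression and 267, 459 and 309 CPM in controls. Replicate 2 was the highest in both groups and replicate 1 the lowest, and the groups overlapped over their whole range. AHCY had a log2 fold change of 0.10 ± 0.22 (SE), the highest of the role, and it turned negative without overexpression replicate 2 (−0.06) or without control replicate 1 (−0.05).

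Homocysteine is either methylated again, in liver by BHMT with betaine among other enzymes, or passed by CBS and CTH to cysteine. BHMT had 67, 92 and 86 counts with overexpression and 92, 85 and 63 counts in controls, a level of 1.86 CPM per kb with overlapping groups. Its log2 fold change was −0.19 ± 0.24 (SE), the lowest of the role, and it was −0.37 without control replicate 3, −0.30 without overexpression replicate 3, −0.04 without overexpression replicate 1 and −0.03 without control replicate 1. CBS stood at 3.94 CPM per kb and CTH at 7.75. CTH had 18.4, 15.8 and 18.1 CPM with overexpression and 18.9, 21.4 and 19.6 CPM in controls. All 3 overexpression libraries lay below the controls, overexpression replicate 1 only just, and the fitted log2 difference was −0.19. Of the 6 tested genes of the role, 2 were fitted higher and 4 lower, with a median of −0.02, and 0 passed the test.

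Of the enzymes that build serine and glycine, PSAT1 and SHMT2 were among the 10 members with the highest level per length, and SHMT1 ranked 24 of 45. PHGDH, which draws carbon from glycolysis into serine, stood at 32.1 CPM per kb, PSAT1, the next enzyme, at 158, and PSPH, which releases serine, at 25.5. PHGDH has 9217 bases of merged exons and PSAT1 2188, and without the length term they lay closer. Mean CPM of PHGDH and PSAT1 were 313 and 358 with overexpression and 278 and 333 in controls. SHMT2, the mitochondrial enzyme that makes glycine from serine, stood at 55.5 and the cytosolic SHMT1 at 8.503. PHGDH had 316, 321 and 301 CPM with overexpression and 243, 302 and 289 CPM in controls. Control replicate 1 stood below the rest and control replicate 2 lay just above overexpression replicate 3, so the groups overlapped. Its log2 fold change was 0.17 ± 0.10 (SE), the highest of the role, and without control replicate 1 it was 0.08. The pseudogene PSPHP1 held 5.33% of the summed counts of PSPH and its copy.

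ASNS, which makes asparagine and is a known target of ATF4 when amino acids are short, had the lowest fitted difference of the role. It had 95.8, 87.1 and 101 CPM with overexpression and 107, 98.4 and 114 CPM in controls. Control replicate 2 lay below overexpression replicate 3, so the groups overlapped. The log2 fold change was −0.17 ± 0.10 (SE), and the 95% interval of −0.40 to 0.05 included 0. In the list of 13 amino acid response genes, which holds ATF4 itself, 7 genes were fitted higher and 6 lower, with a median of 0.05, and 0 passed the test. The role as a whole had 4 genes fitted higher and 2 lower, with a median of 0.07.

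In the last role, 2 entry enzymes of proline and serine breakdown had at most 1 count in any library. PRODH, which starts proline breakdown, had 0 counts in all 6 libraries, and SDS, the liver serine dehydratase, had 1 count in overexpression replicate 3 and 0 elsewhere. Their relatives PRODH2 and SDSL, looked up after these values were seen, had counts in every library, at 2.59 and 3.22 CPM per kb. PRODH2 had 138, 104 and 97 counts with overexpression and 65, 86 and 50 in controls. Its groups did not overlap, and the log2 fold change was 0.52 (edgeR quasi-likelihood test, unadjusted p = 0.0564, adjusted p = 0.797). SDSL had 95, 110 and 94 counts with overexpression and 57, 100 and 84 in controls, with overlapping groups. ALDH4A1, the next enzyme of proline breakdown, was expressed all the same, at 20.3 CPM per kb. ALDH4A1 had 54.3, 99.98 and 67.1 CPM with overexpression and 75.9, 98.4 and 53.8 CPM in controls. Replicate 2 was the highest in both groups and the groups overlapped over nearly their whole range. Its log2 fold change was −0.04 ± 0.26 (SE), and it was 0.14 without overexpression replicate 1 and 0.19 without control replicate 2. ALDH4A1, ARG1 and HAL were the 3 members whose within-group SD of log2(CPM + 0.5) was over 0.41, the value that 90% of all tested genes stayed under, with 0.44, 0.98 and 0.60.

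Several members departed from the rest in 1 library. Control replicate 1 was the lowest library for 17 of the 39 tested members (43.6%), against 26.5% of all tested genes. Control replicate 3 was the lowest for 10 members (25.6%), against 16.4% of all tested genes. In control replicate 1 the glutamate and aminotransferase genes lay on average −0.38 (log2) from their own means, with GPT2 at −0.76 and GPT at −0.71. Over genes with a mean of at least 10 CPM, 1.05% were as low as GPT2 or lower in that library. In control replicate 3 ARG1, HAL and ALDH4A1 carried the departure. Control replicate 2, in contrast, was the highest library for 9 members (23.1%, against 12.5% of all tested genes). The 45 genes together took 0.439% to 0.453% of the counts in overexpression libraries and 0.380%, 0.456% and 0.417% in control replicates 1, 2 and 3. Control replicate 1 also had the highest share of mitochondrial transcripts, 9.29%, and its part in these differences was not tested.

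**Figure D3:**
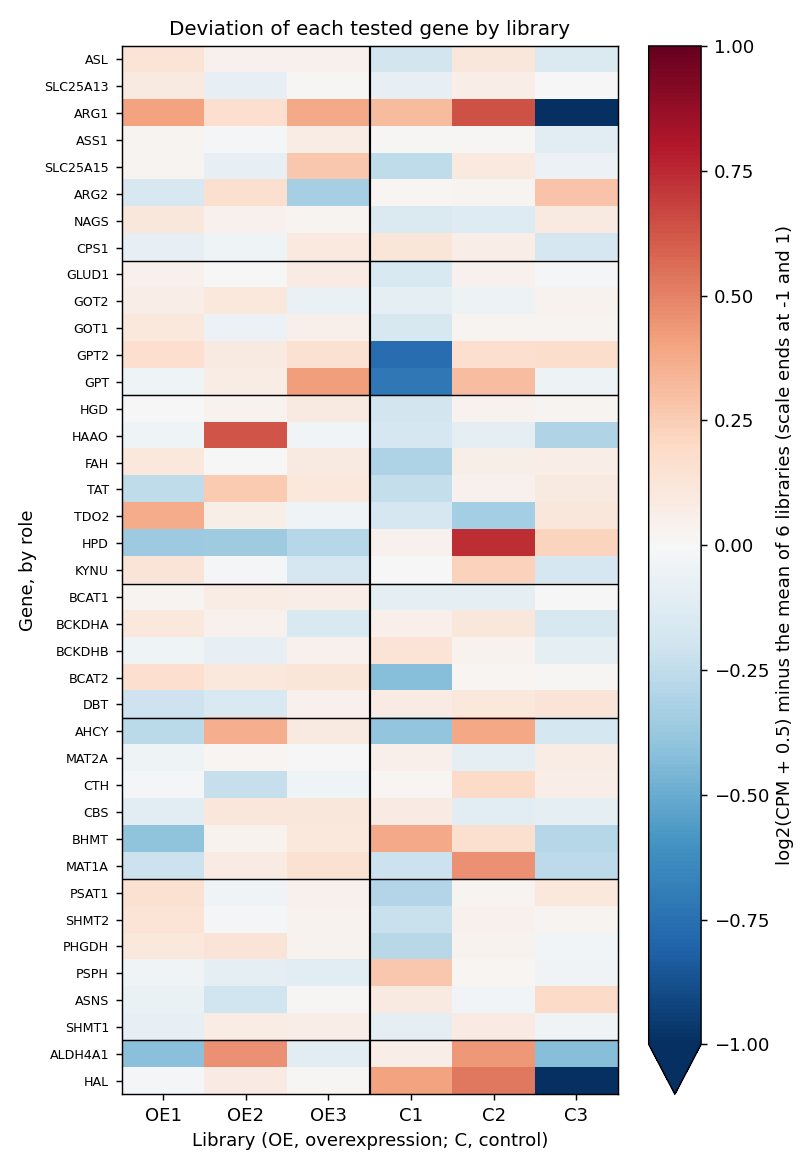
Deviation of log2(CPM + 0.5) from the mean of the 6 libraries for each of the 39 tested genes (rows, by role) in each library (columns: OE1 to OE3, overexpression; C1 to C3, control). The darkest low cells are single libraries, GPT2 and GPT in C1 and ARG1 (−1.90) and HAL (−1.01) in C3, where the colour scale ends at −1. The darkest high cell is HPD in C2 (0.74).

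Only a few members had groups that did not overlap. All 3 overexpression libraries were above all 3 controls for BCAT1, BCAT2 and HAAO, 3 of 39 against 6.4% of all tested genes. All 3 were below the controls for HPD, CTH and DBT, 3 of 39 against 6.5% of all tested genes.

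Ratios between isozymes do not depend on library size and were compared within each library. Ratios per length were taken from the mean log2 ratio of CPM + 0.5 over all 6 libraries. They therefore differ somewhat from ratios of the mean levels given above. By this measure ARG1 was 2.84 times ARG2, BCAT1 was 4.63 times BCAT2 and GOT1 was 0.779 times GOT2. The liver-type or cytosolic form was the minor partner in the other pairs, with GPT at 0.0964 times GPT2, MAT1A at 0.0179 times MAT2A and SHMT1 at 0.154 times SHMT2. The log2 ratio of CPM + 0.5 of ARG1 to ARG2 was 1.77, 1.22 and 1.91 with overexpression and 1.51, 1.82 and −0.97 in controls. Control replicate 3 was the only library with less ARG1 than ARG2 on this scale. The mean difference of 0.85 was not larger than the spread (exact two-sided permutation test, p = 0.6), and without control replicate 3 it was −0.03. For the other 5 pairs the mean differences ran from −0.15 (BCAT1/BCAT2) to 0.03 (MAT1A/MAT2A), with exact permutation p-values of 0.4 to 1.0. The BCAT1/BCAT2 difference was −0.02 without control replicate 1 and −0.24 without control replicate 2. Over the 6 pairs all adjusted p-values were 1.0, and 3 against 3 libraries cannot give a p under 0.1.

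**Figure D4:**
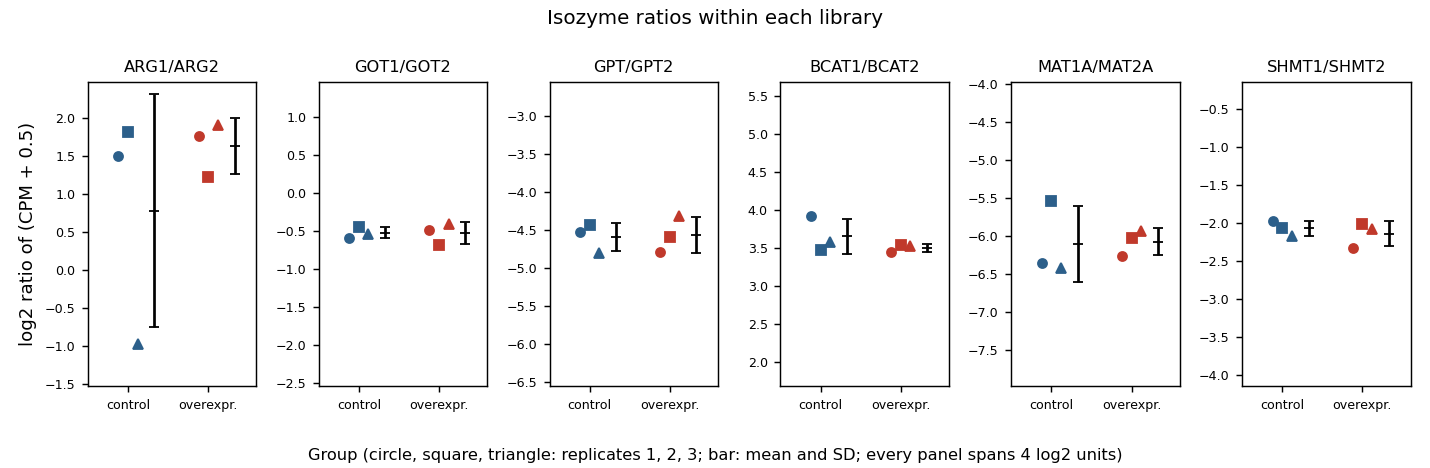
Log2 ratio of CPM + 0.5 between isozymes (y axis, every panel spanning 4 log2 units) in the control and overexpression libraries. Symbols are replicates 1 to 3 and bars the mean and SD of 3 libraries. Overexpression and control symbols overlap in all 6 panels, and the control triangle of ARG1/ARG2 at −0.97 stands apart.

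Beyond the members, 8 lists of 117 genes were measured, of which 111 were tested and 0 passed the test. They hold other genes of these routes, and also 16 amino acid transporters, 13 amino acid response genes and 14 regulators. Of the 111 tested, 67 were fitted higher and 44 lower, with a median of 0.04. At an unadjusted p under 0.05 (edgeR quasi-likelihood test) 6 were higher and 3 lower, 9 of 111 against 5.5% of all tested genes. In the tryptophan route AFMID, the kynurenine formamidase, was fitted higher by 0.43 and ACMSD, which diverts carbon from NAD synthesis, by 0.59, the latter resting on 34 to 100 counts. PYCR1, which makes proline and so opposes PRODH and ALDH4A1, had 1893, 1189 and 1475 counts with overexpression and 720, 971 and 995 counts in controls. Its groups did not overlap, and the log2 fold change was 0.55 ± 0.17 (SE; edgeR quasi-likelihood test, adjusted p = 0.797). AFMID and PYCR1 kept an unadjusted p under 0.05 whichever of the 6 libraries was left out. In the list of ornithine, proline, glutamine and ammonia genes all 10 tested genes were fitted higher, with a median of 0.13.

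Regulators of the hepatic amino acid programme, a response gene and a carrier made up the rest of these 9. CEBPA and CEBPB, C/EBP factors that act on many liver genes, were fitted higher by 0.32 and 0.40, and without control replicate 1 by 0.19 and 0.26. PPARA, a receptor that regulates fatty acid and amino acid breakdown genes, had 342, 104 and 141 counts with overexpression and 69, 64 and 89 counts in controls. Its groups did not overlap, and overexpression replicate 1 was far above the rest. PPARA had a log2 fold change of 1.17 ± 0.40 (SE), and without that library 0.56, with an unadjusted p of 0.0592 (edgeR quasi-likelihood test). PROX1 had a log2 fold change of −1.36, and without control replicate 3 of −0.45. SLC7A1, the carrier for arginine and other cationic amino acids, had a log2 fold change of −0.28, and without overexpression replicate 1 of −0.18. SIRT5, a mitochondrial deacylase that acts on CPS1, had a log2 fold change of −0.35.

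Reads shared with close copies or neighbours limit some of these levels. Processed pseudogenes or copies held 4.3% of the summed counts for ASNS and under 1% for ASS1, ASL, SLC25A15, GOT2, AHCY, CBS and PSAT1. These shares cover assigned counts only and would not show reads that were left out for matching several genes. Opposite-strand neighbours with counts of their own overlapped ARG1, ARG2, BCKDHA, BHMT, GLUD1, GNMT, GLS2, KMO, MAT2A, SDS, SHMT1 and SHMT2. For BHMT the neighbour DMGDH held 1714 counts over the 6 libraries against 485 for BHMT, and for SHMT1 the neighbour SMCR8 held 8497 against 4662.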

How the data were processed

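Total RNA of transfected Huh7 cells was sequenced in 6 libraries by the authors, who deposited whole-number read counts and FPKM values per gene. The submitters' processing notes name TopHat2 2.0.9 and hg38. The counting tool, its strand setting and the annotation release are not given in the sources used here. The counts were deposited without normalization, while the deposited FPKM values were scaled by the authors to library size and gene length. GENCODE 29 (GRCh38) held 98.5% of the gene IDs, 94.8% of them at identical coordinates, among them 42 of the 45 members.

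Groups and replicate numbers came from the sample titles. The main comparison was a two-sided quasi-likelihood test of the group on counts (edgeR 4.0.16, R 4.3.3), after TMM scaling and the filterByExpr rule at its minimum count of 10. Adjustment was by Benjamini-Hochberg over 15055 genes. The script was tested on simulated data. CPM used TMM library sizes, with 0.5 added before logs. The biological coefficient of variation was 16.1%. Library totals of 11130902 to 14138262 counts put the limit of 3 counts at 0.212 to 0.269 CPM. Within groups, library pairs differed by a chi-square of 10.1 to 20.9 per degree of freedom, so none was a copy. Deviations of same-numbered libraries correlated at −0.036, −0.023 and −0.031, so no shared deviation by number was seen over all tested genes. This cannot show whether the libraries were handled in pairs. Isozyme ratios were compared by exact permutation tests (SciPy 1.17.1).

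The 45 members and all lists were chosen with earlier results of these data known. Per-gene errors are given for members with a p under 0.05 and for those with the largest and smallest fold change of each role, and other genes are named where their unadjusted p was under 0.05, as markers, copies, neighbours or the host gene, or where the text says that they were looked up or named after their values were seen. As alternatives, the scaling (RLE, upper quartile), the tool (DESeq2 1.42.0, or limma 3.58.1 on log2(FPKM + 1)) and the filter (none, or a mean of at least 50 counts) were changed, a replicate block was added, and every library was dropped in turn. Summing members with their near-identical copies was added after seeing the data.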

Additional observations from a re-analysis of the deposited data

How the results depend on the processing

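No member passed an adjusted p of 0.05 under any alternative, and the smallest adjusted p of any member was 0.669. Of 181 alternative values for the 14 genes given with errors, 171 kept their direction and 10 reversed. Members at an unadjusted p under 0.05 numbered 2 without a filter (HPD and HAAO), 0 with a mean of at least 50 counts and 0 with limma, both of which dropped HPD from the genes tested, and 1 to 3 without each replicate in turn. Over all genes, DESeq2 called 8 higher and 20 lower, and leaving out each replicate gave 1 to 7 higher and 2 to 9 lower, against 4 and 2. With a replicate block 2 genes were called higher and HAL turned to 0.033, and the block changed no member's call. HAL was also reversed in limma (0.049). Without each replicate, ARG1 ran from −0.17 to 0.73, AHCY from −0.061 to 0.36, ALDH4A1 from −0.33 to 0.19 and HAL from −0.44 to 0.17. For isozyme differences the same ranges were −0.028 to 1.37 (ARG1/ARG2), −0.064 to 0.078 (GOT1/GOT2), −0.10 to 0.14 (GPT/GPT2), −0.24 to −0.02 (BCAT1/BCAT2), −0.13 to 0.32 (MAT1A/MAT2A) and −0.13 to 0.025 (SHMT1/SHMT2), and GPT/GPT2 was −0.0065 with a pseudocount of 1 CPM and −0.079 on FPKM. The cause of these reversals was not tested beyond the libraries named. The members' median stayed between 0.01 and 0.11. Depth limited OTC, GLS2, KMO, GNMT, SDS and PRODH most, and HPD rested on 16 to 37 counts per library.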
